A study of Mus musculus with 29 samples.

Results

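Astrocytes of the mouse cerebral cortex that had been grown with bFGF as the only added growth factor received the proneural factor Neurog2 on top of the chromatin protein Hmgb2, and the transcriptome of these Neurog2+Hmgb2 cells was set against that of cells given Hmgb2. The members are 7 of the 29 RNA-seq libraries of the study, namely 3 Neurog2+Hmgb2 and 4 Hmgb2 libraries, chosen by culture and virus in their labels, and 15719 of 25239 genes, namely those with a mean value of at least 1 over all libraries. The cells of all groups were primary astrocytes of wild-type C57BL/6J mice aged 5 to 6 days, whereas the design text gives 6 to 8 days, and the labels name grey matter where the methods name white matter as the source. They were grown for 10 days with 10 ng/ml bFGF. Retroviruses with a CAG promoter then delivered the cDNA of Neurog2 with dsRED, of Hmgb2 with GFP, or both, and transduced cells were sorted by fluorophore after 48 h. As comparison served 4 Neurog2 and 3 control (reporter alone) libraries of the same culture, and 3 Neurog2+Hmgb2 and 4 Hmgb2 libraries of a culture with 10 ng/ml EGF beside the bFGF. Such viruses integrate in dividing cells, so each library describes the cells that were dividing at transduction and passed the sort. Nothing states that replicates came from separate cultures, so p-values measure only the spread between these libraries.

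Neurog2 is a basic helix-loop-helix transcription factor of cortical neurogenesis that binds E-boxes as a dimer with E proteins. It is known to switch on a cascade of further neurogenic factors and Notch ligands in progenitors, and it can convert cultured astrocytes into neurons. Hmgb2 is a high mobility group protein that binds and bends DNA without sequence preference and is abundant in dividing cells. The comparison asks what Neurog2 adds in cells that also received the Hmgb2 virus, as the paper describes both viruses as given together. The Neurog2+Hmgb2 cells differ from the Hmgb2 cells also in a second virus, its dsRED reporter and the sort by fluorophore. The parts of these and of Neurog2 cannot be told apart here. All values are regularized log2 (rlog) values as deposited, so a difference of 1 is a 2-fold change, and changes of genes with few reads are understated.

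The transduced genes were checked first, and the Hmgb2-labelled libraries were not at the control level of Neurog2. Neurog2 (chromosome 3, 127633135 to 127635631 on GRCm38) was at rlog 14.11, 12.47 and 13.50 in the Neurog2+Hmgb2 libraries, against 9.35, 11.02, 10.80 and 9.86 in the Hmgb2-labelled libraries. The groups did not overlap, and the log2 difference was 3.11 ± 0.39 (SE, adjusted p = 0.00014, limma). The bFGF control libraries, however, had 8.22, 8.18 and 7.86, below every Hmgb2-labelled library. The Hmgb2-labelled libraries thus lay 2.17 ± 0.39 above control (adjusted p = 0.0961 and unadjusted p = 1.22e-05, limma), and those of the EGF+bFGF culture 2.66 ± 0.35 above theirs (adjusted p = 0.000551). Cbfa2t3, a transcriptional corepressor of the ETO family, was 0.97 ± 0.28 above control in the bFGF Hmgb2-labelled libraries (adjusted p = 1 and unadjusted p = 0.00193) and 1.19 ± 0.25 above it in those of the EGF+bFGF culture (adjusted p = 0.319 and unadjusted p = 6.09e-05). Cbfa2t3 is 1 example, and other genes that changed with Neurog2 below lay closer to control. In bFGF culture the means of Hmgb2-labelled and control libraries were 8.90 and 8.64 for Hes6 and 6.27 and 6.10 for Dll1. For Gjb2, which fell with Neurog2, they were 7.43 and 7.26. Of all tested genes 1 was called for Hmgb2 against control in bFGF culture. The source of the Neurog2 reads in the Hmgb2-labelled libraries was not tested, and the differences below are against libraries with this level. Hmgb2 (chromosome 8, 57511907 to 57515999) was at 12.27, 12.22 and 12.81 in Neurog2+Hmgb2 cells, against 11.48, 11.77, 11.87 and 11.72 in Hmgb2 cells, whereas the bFGF controls lay between 9.34 and 9.91. The Hmgb2 mRNA was thus somewhat more abundant where Neurog2 was added to Hmgb2 (0.72 ± 0.27), without passing the test (adjusted p = 0.304, limma). Neurog2 against control in bFGF culture, without the Hmgb2 virus, gave the same difference of 0.72 ± 0.27 (adjusted p = 0.41, limma). Reads of the viral cDNA count towards both genes.

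**Figure D1:**
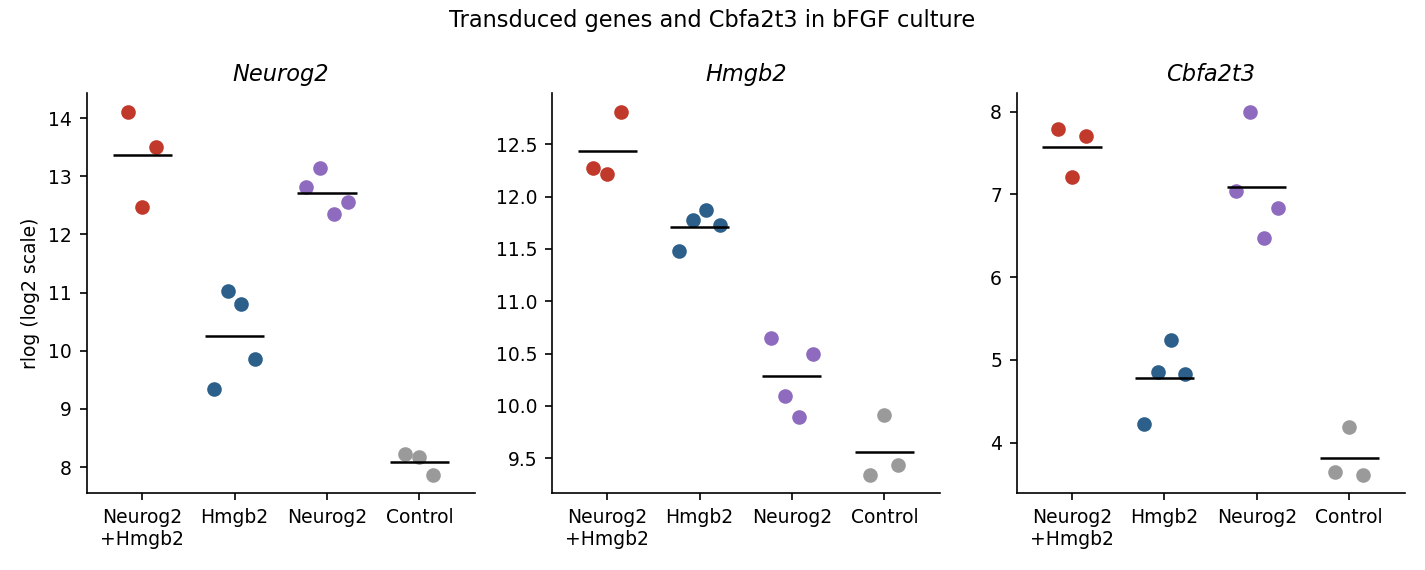
The rlog values of Neurog2, Hmgb2 and Cbfa2t3 are plotted for each bFGF library (points) with the group mean (line) in Neurog2+Hmgb2, Hmgb2, Neurog2 and control cells. Neurog2 was at 9.35 to 11.02 in the Hmgb2-labelled libraries, between the Neurog2+Hmgb2 libraries and the controls.

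The libraries looked like astrocytes with other cells or their RNA beside them. Gfap, the intermediate filament of astrocytes, was at 13.77 to 15.78 in Neurog2+Hmgb2 libraries and at 13.94 to 15.86 in Hmgb2 libraries, and none of 34 astrocyte identity genes changed at an adjusted p under 0.05, although 25 of them were below 0 (median −0.47). Of 39 reactive astrocyte genes 33 were below 0 (median −0.36), and none was called. Microglia and macrophage markers were present, with a mean over 24 genes of 6.93, 7.78 and 7.18 in Neurog2+Hmgb2 libraries, against 6.11, 7.08, 5.62 and 5.75 in Hmgb2 libraries. Their median log2 difference was 1.35, with 22 of 24 above 0, none called and 4 without overlap of the groups. Over all tested genes the median was 0.01, and 5.69% were apart upwards. Tyrobp, an adaptor of myeloid receptors, was at 8.12, 8.64 and 8.00, against 6.29, 7.67, 5.66 and 5.75 (adjusted p = 0.596). The part of these cells in the results was not tested beyond a fit with their mean as a covariate, which called 76 genes higher and 9 lower. In such bulk samples, fewer cells of a type and less RNA per cell cannot be told apart. Across genes the 7 libraries correlated at 0.946 to 0.99. Of the deviations of libraries from their group means, 45.4% lay on 1 axis, with Neurog2+Hmgb2 replicate 1 and Hmgb2 replicate 3 at its ends among these 7.

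**Figure D2:**
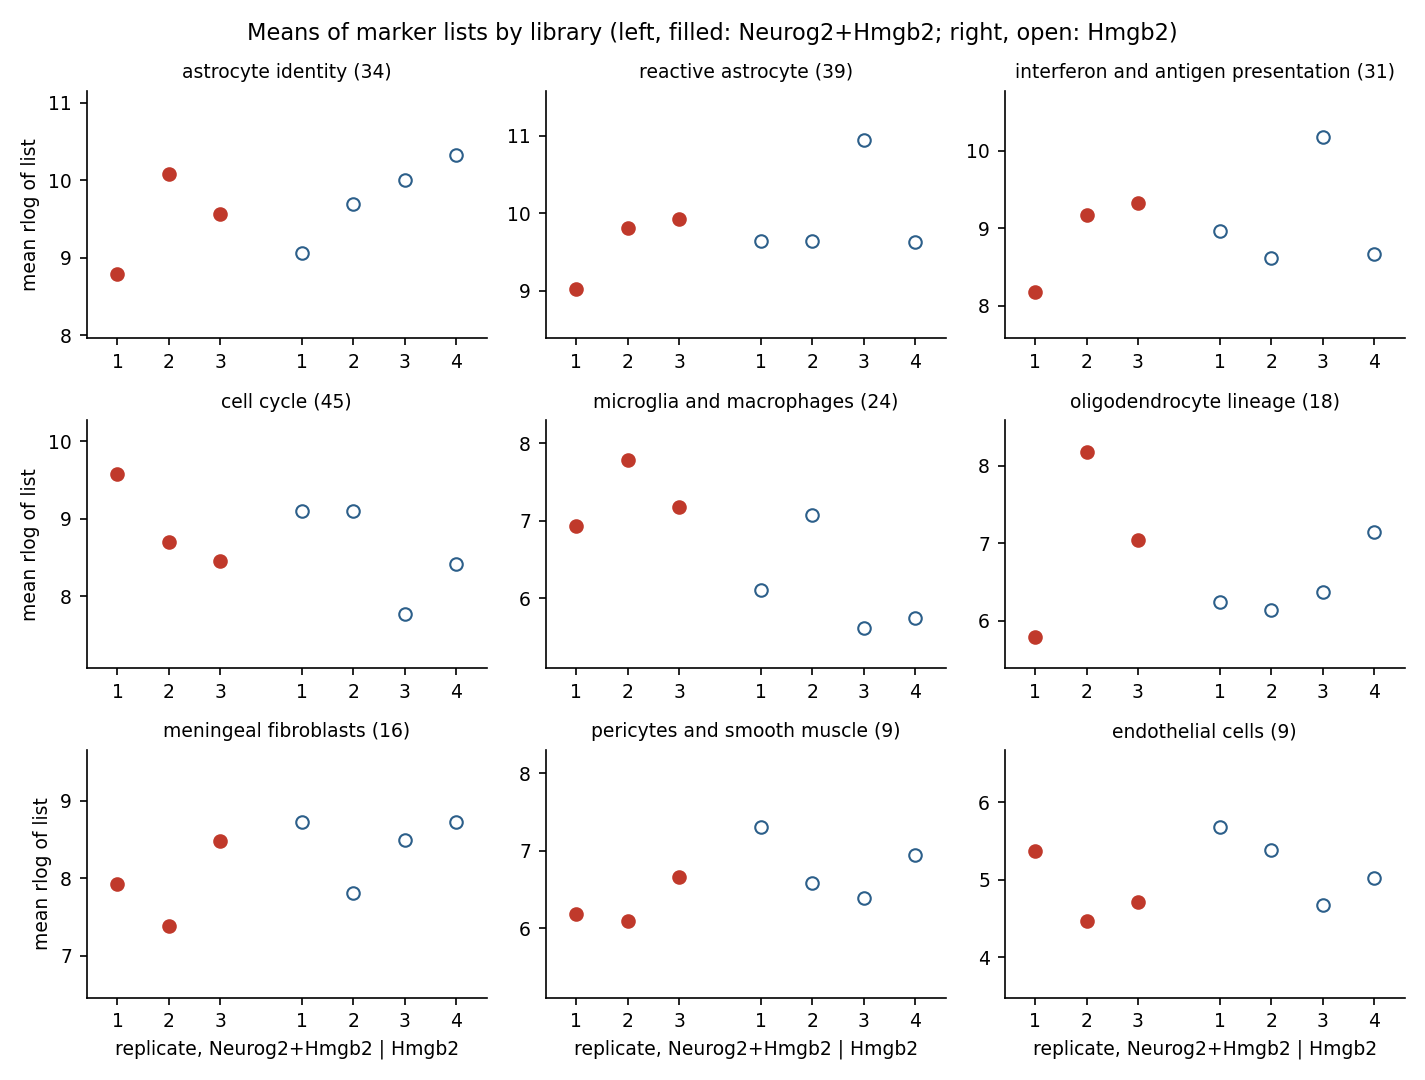
Each panel plots the mean rlog of a marker list in the 3 Neurog2+Hmgb2 libraries (left, filled) and the 4 Hmgb2 libraries (right, open), with the number of tested genes in parentheses and a vertical span of the same size. The groups overlap in all 9 lists, and the microglia means were 6.93 to 7.78 and 5.62 to 7.08.

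More genes were called higher than lower when Neurog2 was added to Hmgb2. Neurogenic factors, Notch ligands and proteins of the neuronal cytoskeleton and vesicle release were among the rises. A connexin and genes of matrix and contractile fibres were among the falls. At a fold above 2 and an adjusted p under 0.05, 84 genes were higher (0.534% of the 15719 tested) and 19 were lower (0.121%). With any fold, 109 were higher (0.693%) and 34 were lower (0.216%), and the counts of called list members below stand beside these shares. Of the 84 genes, 82 had every Neurog2+Hmgb2 library above every Hmgb2 library, and 18 of the 19 lower genes had every one below. Of all tested genes 5.69% were apart upwards and 4.52% downwards. The called genes were chosen by their difference in these same libraries, which favours a lack of overlap. The rises had a median of 1.84 and the falls one of −1.45. The median over all tested genes was 0.01. At an unadjusted p under 0.05 (limma) there were 1622 genes, 913 higher and 709 lower, where the level alone would give 786. The excess of higher genes at this level depended on the fit. It was 823 against 804 with libraries centred on their medians and 940 against 770 with quantile normalization. Without Hmgb2 replicates 2 and 3, a fit added after the data were seen, 687 were higher and 702 lower. The counts depend on single libraries. Leaving out Neurog2+Hmgb2 replicate 1, 2 or 3 gave 165, 29 or 27 higher genes, and leaving out Hmgb2 replicate 1 gave 38. The lower genes numbered 3 or 5 without Neurog2+Hmgb2 replicate 2 or 3, and 2, 38, 8 or 8 without Hmgb2 replicate 1, 2, 3 or 4. Whichever library was left out, 19 higher and 2 lower genes were called. A fit of the 7 libraries alone called 6 genes higher and 0 lower, with 884 higher and 627 lower at an unadjusted p under 0.05.

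The genes called higher whichever library was left out included Neurog2, Nhlh1, Neurod1, Neurod2, St18, Hes6 and Cbfa2t3 among transcriptional regulators, the Notch ligand Dll1, and Lzts1, Cplx2, Chodl, Prmt8, Ppp1r14a, Atp2b2 and Trp53i11. Gjb2 and Ccn3 were the 2 lower ones. These names were chosen from the fits that left out 1 library. In the fit of the 7 libraries alone, 51 of the 55 named genes called lost their call. Among them were Neurog2 (adjusted p = 0.109, limma) and Gjb2 (0.0624).

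The cascade of neurogenic transcription factors formed the largest group of rises. Of 30 tested factors, 10 rose and none fell, the median difference was 1.23, and 17 were apart in the groups. Nhlh1, a helix-loop-helix factor of newly born neurons, was at 5.42, 6.64 and 5.97 with Neurog2+Hmgb2, against 2.91, 3.37, 3.08 and 3.11 with Hmgb2. This is a log2 difference of 2.89 ± 0.48 (SE, adjusted p = 0.00327, limma). Cbfa2t3 was at 7.79, 7.22 and 7.71, against 4.23, 4.85, 5.24 and 4.83. With 2.78 ± 0.28 it had the smallest adjusted p of all genes called, 9.01e-06. Neurod1, a differentiation factor downstream of proneural genes, was at 5.61, 6.79 and 7.06, against 3.56, 4.24, 3.69 and 3.44 (2.75 ± 0.44, adjusted p = 0.00252). In each of these genes the lowest Neurog2+Hmgb2 library lay above the highest Hmgb2 library. Neurod2 was at 4.20, 4.72 and 4.90, against 2.36, 2.87, 2.37 and 2.38. St18, a zinc finger factor of the Myt family, was at 3.87, 5.30 and 4.79, against 2.67, 2.65, 2.69 and 2.33. Ebf2, a factor of neuronal differentiation, was at 4.36, 5.72 and 5.19, against 3.36, 2.87, 2.91 and 2.97, but it lost its call without any 1 of 5 libraries (adjusted p = 0.0501 to 0.196 without Neurog2+Hmgb2 replicates 2 or 3 or Hmgb2 replicates 1, 3 or 4). The other called members were Hes6 at 10.77, 10.93 and 10.81, against 8.36, 9.06, 9.19 and 8.99, and Sox11, Ebf3 and Onecut2 with differences of 1.63, 1.03 and 1.01. Insm1, which drives progenitors towards differentiation, had a difference of 2.61 ± 0.70 with no overlap of the groups and did not pass the test (adjusted p = 0.0798). Neurog2+Hmgb2 replicate 1 was the lowest of its group in Nhlh1, Neurod1, Neurod2, St18 and Ebf2, and without it 17 factors were called.

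Promoters of rising genes held E-boxes of the kind that proneural factors bind more often than those of all tested genes, as a description without a test. The motif CAGATG, which on the opposite strand reads as CATCTG, was searched on both strands in the 250 bases before the start site that the RefSeq promoter table gives on GRCm38.p6, in genes with 1 promoter. The palindromic motif CAGCTG was searched likewise. Both are cases of the general E-box with the letters CANNTG, so their matches also count there. Of 84 higher genes, 51 had 1 promoter, and 21.6% of these held the first motif and 27.5% the palindromic one, against 9.94% and 11.9% of 9885 tested genes. The general E-box was in 68.6% of the higher genes and in 57.3% of all. Of the lower genes, 9 had 1 promoter, with the first motif in 1, the palindromic one in 0 and the general E-box in 4 (44.4%). The sequences below show 4 rising genes with a match to CAGATG or CAGCTG, a pair of them transcription factor genes, and Gjb2, the largest fall. Gjb2 has neither of these motifs, but its window holds a general E-box, CAGGTG, near the end. They were chosen after the matches were seen and run 5′ to 3′ in the direction of the gene. Matches to CAGATG and CAGCTG are in capitals, and other general E-boxes are not marked.
Nhlh1: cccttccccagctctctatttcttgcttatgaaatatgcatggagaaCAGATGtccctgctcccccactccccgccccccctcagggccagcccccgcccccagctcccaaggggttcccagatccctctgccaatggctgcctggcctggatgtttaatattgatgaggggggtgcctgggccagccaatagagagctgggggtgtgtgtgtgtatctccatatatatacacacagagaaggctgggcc
Neurod2: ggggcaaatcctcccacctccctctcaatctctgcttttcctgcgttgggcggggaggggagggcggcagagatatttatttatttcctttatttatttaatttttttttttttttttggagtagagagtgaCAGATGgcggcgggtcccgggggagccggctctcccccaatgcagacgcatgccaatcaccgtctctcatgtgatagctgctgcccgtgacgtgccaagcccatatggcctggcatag
Insc: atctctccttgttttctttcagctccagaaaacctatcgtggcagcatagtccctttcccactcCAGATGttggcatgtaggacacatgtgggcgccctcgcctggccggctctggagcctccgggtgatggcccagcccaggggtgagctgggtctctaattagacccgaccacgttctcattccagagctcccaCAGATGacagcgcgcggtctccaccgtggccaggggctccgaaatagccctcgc
Dll3: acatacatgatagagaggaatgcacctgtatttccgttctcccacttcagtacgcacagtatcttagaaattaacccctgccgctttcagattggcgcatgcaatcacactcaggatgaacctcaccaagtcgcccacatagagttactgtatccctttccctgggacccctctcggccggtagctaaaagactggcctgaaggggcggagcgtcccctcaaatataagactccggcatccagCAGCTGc
Gjb2: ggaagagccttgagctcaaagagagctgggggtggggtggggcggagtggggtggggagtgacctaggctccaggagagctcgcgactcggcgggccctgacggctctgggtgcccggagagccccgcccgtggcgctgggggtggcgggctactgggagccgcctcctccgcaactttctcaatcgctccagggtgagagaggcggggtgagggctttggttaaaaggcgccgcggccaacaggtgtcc
The Nhlh1 window lies on chr1:172057597-172057846 and the Neurod2 window on chr11:98329646-98329895, both on the reverse strand. The Insc window is chr7:114745516-114745765 on the forward strand and has 2 matches to CAGATG. The Dll3 window is chr7:28301786-28302035 and the Gjb2 window chr14:57104703-57104952, both reverse. The Insc and Dll3 windows lie inside the genes as GENCODE annotates them (chromosome 7, 114743694 to 114850383 and 28293553 to 28302238), so their RefSeq start sites lie downstream of the outermost GENCODE start. A match is not a measured site, and no binding was measured here.

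Ligands and a modifier of the Notch pathway rose. None of its tested receptors and targets was called, although the mean values of the targets Heyl and Hes5 were also higher with Neurog2+Hmgb2. Notch ligands on a differentiating cell are known to hold neighbours in the progenitor state. Of 22 tested genes of the pathway 4 rose and none fell, with a median of 0.27. Dll1 was at 8.27, 8.35 and 8.47 in Neurog2+Hmgb2 cells, against 5.43, 6.11, 6.83 and 6.70 in Hmgb2 cells (2.09 ± 0.36, adjusted p = 0.00409, limma). Its Neurog2+Hmgb2 libraries were close together, and it kept its call without any 1 library. Dll3, a ligand that acts inside the cell, was at 6.98, 9.56 and 8.76, against 5.18, 5.56, 6.46 and 6.31 (adjusted p = 0.0285). Dll4 was at 4.88, 6.60 and 5.62, against 3.61, 3.77, 4.30 and 3.67. Mfng, a fringe glycosyltransferase that modifies Notch, was at 4.95, 6.78 and 5.45, against 3.56, 3.97, 4.49 and 3.45. Replicate 2 was the highest Neurog2+Hmgb2 library in all 4 genes except Dll1. Without it, and likewise without replicate 3 or without Hmgb2 replicate 1, only 1 gene of the pathway was called. Dll3 also lost its call without Hmgb2 replicate 2 (adjusted p = 0.0586) and Mfng without Hmgb2 replicate 4 (0.0858). Of the targets, Heyl was at 8.29, 5.63 and 6.40, against 3.54, 5.34, 3.68 and 4.41, apart but not called (adjusted p = 0.0647). Hes5, the target most used as a readout of Notch in progenitors, was at 7.05, 10.34 and 8.19, against 5.67, 6.59, 6.27 and 7.94, with overlap (adjusted p = 0.453). Hes1, Hey1 and Notch1 had differences of 0.37, −0.09 and 0.11.

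Genes of the neuronal cytoskeleton and of RNA binding followed with 7 rises and no fall among 30 tested genes and a median of 0.91. Dcx, a microtubule protein of migrating neurons, was at 7.17, 8.80 and 8.21 with Neurog2+Hmgb2, against 3.94, 5.35, 5.40 and 5.16 with Hmgb2. Every Neurog2+Hmgb2 library lay above every Hmgb2 library, and the log2 difference was 3.10 ± 0.59 (adjusted p = 0.00989, limma). Rbfox3, the splicing factor known as NeuN, was at 6.20, 8.01 and 7.54, against 4.13, 4.00, 4.78 and 4.55 (2.89 ± 0.50). Elavl2, an RNA-binding protein of neurons, was at 7.28, 9.06 and 8.42, against 5.04, 5.84, 5.79 and 6.01 (2.58 ± 0.46). Tubb3, the tubulin of early neurons, was at 10.66, 11.17 and 10.57, against 9.18, 9.51, 8.39 and 9.37. Srrm4, which drives neuronal microexon splicing, and the intermediate filament gene Ina rose by 1.85 ± 0.34 and 1.87 ± 0.44, and Crmp1 rose by 1.62 ± 0.37. Srrm4os, antisense to Srrm4, was 1.79 ± 0.36 higher, and as the libraries were not stranded, reads of the pair cannot be told apart. Map2, a protein of dendrites, was at 8.70, 10.85 and 10.18, against 8.54, 8.99, 8.48 and 9.80, and Stmn2, an axonal tubulin-binding protein, at 8.87, 7.82 and 7.93, against 9.81, 8.75, 8.40 and 8.41. Neither passed the test (adjusted p = 0.565 and 0.626). The group rests on single libraries, since 0, 2 and 4 genes were called without Neurog2+Hmgb2 replicates 2 or 3 and Hmgb2 replicate 1. Dcx then had adjusted p-values of 0.111, 0.0667 and 0.0523.

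**Figure D3:**
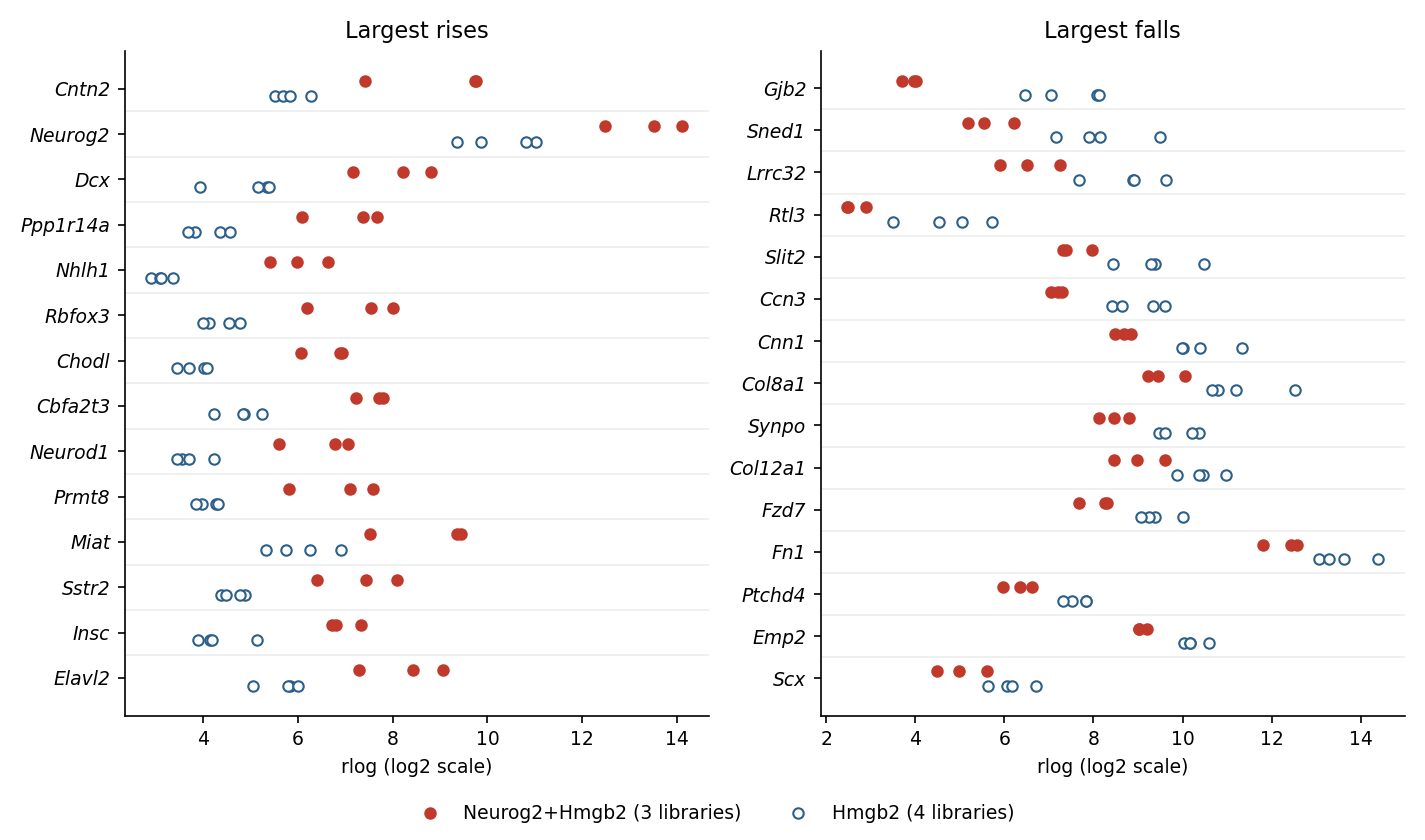
The rlog values of the genes named for the largest rises and falls without overlap are plotted per gene, with Neurog2+Hmgb2 libraries (filled, upper row) and Hmgb2 libraries (open, lower row). In the rises, Neurog2+Hmgb2 libraries spread more than Hmgb2 libraries in genes such as Cntn2 (7.42 to 9.75 and 5.52 to 6.27).

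Axon guidance and adhesion genes gave a call in each direction. Of 45 tested genes of axon guidance and adhesion, 1 rose and 1 fell, and the median was −0.09. Cntn2, an axonal adhesion molecule, had the largest difference of all genes that rose. It was at 7.42, 9.75 and 9.75 with Neurog2+Hmgb2, against 5.52, 5.69, 5.82 and 6.27 with Hmgb2 (3.15 ± 0.61, adjusted p = 0.0111, limma), and had adjusted p-values of 0.123 and 0.115 without Neurog2+Hmgb2 replicates 2 and 3. Slit2, a secreted ligand that repels axons, was at 7.38, 7.32 and 7.97, against 10.49, 8.44, 9.39 and 9.28 (−1.84 ± 0.39, adjusted p = 0.0221). Hmgb2 replicate 1 was the highest, and the call was lost without it (adjusted p = 0.103) and without any 1 of the Neurog2+Hmgb2 replicates (0.0535 to 0.153). Its relative Slit1 had a difference of 2.03 ± 0.50 in the other direction (adjusted p = 0.0521), and Slit3 one of −1.35 ± 0.47 (adjusted p = 0.228). Among 20 genes of newborn neuron migration, 3 rose and none fell (median 0.33). Lzts1, which helps newborn neurons to delaminate, was at 7.19, 8.16 and 8.15, against 5.19, 5.96, 6.09 and 5.58 (2.13 ± 0.31, adjusted p = 0.000981), and it kept its call without any 1 library. Celsr3, a cadherin of axon tracts, rose by 1.70 ± 0.37 and the chemokine receptor Cxcr4 by 1.35 ± 0.27. The migration genes called numbered 7 without Neurog2+Hmgb2 replicate 1 and 1 without replicate 2, replicate 3 or Hmgb2 replicate 1. Of the axon guidance genes, 5 were called higher without Neurog2+Hmgb2 replicate 1.

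Some components of transmitter release rose, and 1 postsynaptic gene did. Of 28 tested genes of the synaptic vesicle and its release, 6 rose and none fell, with a median of 0.54. Cplx1, a complexin that clamps vesicle fusion, was at 4.56, 5.92 and 5.67 in Neurog2+Hmgb2 cells, against 2.78, 3.68, 2.95 and 3.36 in Hmgb2 cells (2.19 ± 0.39, adjusted p = 0.00572, limma). Its paralogue Cplx2 was at 8.22, 8.92 and 8.52, against 6.88, 7.30, 7.12 and 7.0 (1.48 ± 0.25, adjusted p = 0.00371). Cplx2 held its call without any 1 library, whereas Cplx1 lost it without Neurog2+Hmgb2 replicate 2 or 3 (adjusted p = 0.0743 and 0.0546). Snap25, Sv2b and Bsn rose by 2.10 ± 0.46, 2.09 ± 0.40 and 0.95 ± 0.23. Of 34 postsynaptic genes 1 rose, the nicotinic receptor subunit gene Chrna3, at 3.82, 4.74 and 4.98, against 2.93, 2.64, 2.95 and 2.69. Of 15 granins and neuropeptides 1 rose, the granin Chga, at 6.00, 7.52 and 6.79, against 4.06, 5.15, 4.64 and 4.58. No member of either list fell. The vesicle genes called numbered 2 without Neurog2+Hmgb2 replicate 2 or 3 and 3 without Hmgb2 replicate 1, and Snap25 and Bsn also lost theirs without other Hmgb2 libraries (adjusted p = 0.0543 to 0.149). Chrna3 and Chga lost their calls without Neurog2+Hmgb2 replicate 2 or 3 (0.0589 to 0.146), and Chga also without Hmgb2 replicate 1 (0.0618). Without Neurog2+Hmgb2 replicate 1, 3 postsynaptic genes were called.

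Among 24 chromatin subunits and HMG proteins 3 rose and none fell (median 0.15). Actl6b, the actin-related subunit of the BAF complex of neurons, was at 2.77, 4.00 and 3.65, against 2.09, 2.21, 1.94 and 2.09 in Hmgb2 cells, with an adjusted p of 0.0331 (limma). Bcl7a, another BAF subunit, rose by 1.05 ± 0.23. Kdm1a, a histone demethylase with a neuronal splice form, rose by 0.42 ± 0.09. No gene of this list was called without Neurog2+Hmgb2 replicate 2 or 3 or Hmgb2 replicate 1 or 4, and 1 was called without Hmgb2 replicate 3. Bcl7a was not called without Neurog2+Hmgb2 replicate 1 (adjusted p = 0.0591), nor Kdm1a without Hmgb2 replicate 2 (0.0515).

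Of the 84 higher genes, 49 were in none of the lists. Ppp1r14a, an inhibitor of myosin phosphatase, was at 7.66, 6.08 and 7.36 with Neurog2+Hmgb2, against 3.83, 4.35, 4.56 and 3.69 with Hmgb2 (2.93 ± 0.34, adjusted p = 5.79e-05, limma). Unlike most neuronal genes above, it was lowest in replicate 2, the Neurog2+Hmgb2 library with the least Neurog2. Chodl, a membrane protein of motor neurons, was at 6.05, 6.90 and 6.94, against 3.45, 4.01, 4.09 and 3.69. Prmt8, an arginine methyltransferase of the brain, was at 5.80, 7.58 and 7.10, against 3.98, 3.85, 4.26 and 4.32. All of them kept their calls without any 1 library. Sstr2, a somatostatin receptor, was at 6.40, 8.08 and 7.44, against 4.38, 4.88, 4.79 and 4.49. Insc, an adaptor of spindle orientation, was at 6.79, 7.33 and 6.72, against 5.13, 3.89, 4.15 and 4.18. The noncoding RNA Miat, which is expressed in developing neurons, was at 7.51, 9.35 and 9.44, against 5.76, 5.33, 6.26 and 6.92. Miat lost its call without Neurog2+Hmgb2 replicate 2 or 3 or Hmgb2 replicate 1 or 2 (adjusted p = 0.0605 to 0.188). Sstr2 lost its call without Neurog2+Hmgb2 replicate 2 or 3 (0.0891 and 0.0519), and Insc without replicate 2 (0.0891).

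Prox1, Lrp8, Shf and Dscaml1, which the study names for these cells, did not pass the test in this comparison. The study reports them as induced against the control virus, with DESeq2 on counts. By its account Neurog2 without Hmgb2 induced them only in the EGF+bFGF culture, and in bFGF culture they rose once Hmgb2 was co-expressed. Its reference group and its test thus differ from those used here. Prox1, a homeobox factor of neuronal maturation, was at 7.24, 9.0 and 8.52 with Neurog2+Hmgb2, against 5.98, 6.75, 6.99 and 7.09 with Hmgb2 (1.55 ± 0.43, adjusted p = 0.101, limma). Lrp8, a reelin receptor, was at 9.61, 10.91 and 10.65, against 8.67, 9.29, 8.42 and 9.10 (1.52 ± 0.37, adjusted p = 0.0508). Shf, an adaptor protein, was at 7.19, 8.04 and 7.61, against 6.58, 6.61, 5.99 and 6.09. These 3 genes were higher in every Neurog2+Hmgb2 library than in any Hmgb2 library. Dscaml1, an adhesion molecule, overlapped with 6.52, 8.59 and 8.25, against 4.87, 5.79, 6.72 and 6.12. Without Neurog2+Hmgb2 replicate 1 the adjusted p fell to 0.0185 for Prox1, 0.0146 for Lrp8 and 0.0212 for Dscaml1, and without Hmgb2 replicate 2 to 0.0454 for Lrp8. With array weights, which give less weight to libraries that deviate more, all 4 passed (adjusted p = 0.000104 for Prox1, 4.82e-05 for Lrp8, 0.00517 for Shf and 6.76e-05 for Dscaml1), and Lrp8 also passed with libraries centred on their medians (0.0464). Neurog2 against control in bFGF culture, without the Hmgb2 virus, gave 1.27 for Prox1, 1.09 for Lrp8, 1.18 for Shf and 1.85 for Dscaml1, none called. Their response to Neurog2 with Hmgb2 minus that without Hmgb2 was 0.27 (95% interval −0.99 to 1.54) for Prox1 and 0.43 (−0.66 to 1.53) for Lrp8. It was 0.12 (−1.17 to 1.41) for Shf and 0.06 (−1.52 to 1.65) for Dscaml1, so no difference was detectable, and differences of either sign lie within the intervals.

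Among the lower genes were a connexin gene and genes of matrix and contractile fibres. Gjb2, a connexin of gap junctions, had the largest change of all genes called. It was at 4.01, 3.98 and 3.72 with Neurog2+Hmgb2, against 8.07, 6.47, 7.05 and 8.12 with Hmgb2 (−3.53 ± 0.63, adjusted p = 0.00534, limma). The Neurog2+Hmgb2 libraries were close together and all below the lowest Hmgb2 library. Over the other groups, Gjb2 was at 4.96 ± 1.00 (SD, n = 4) with Neurog2 and 7.26 ± 0.78 (n = 3) with the control virus in bFGF culture. It was at 3.72 ± 0.21 (n = 3) with Neurog2+Hmgb2 and 4.99 ± 0.73 (n = 4) with Hmgb2 in the EGF+bFGF culture. Ccn3, a matricellular protein, was at 7.20, 7.04 and 7.29, against 9.61, 8.42, 8.64 and 9.35 (−1.82 ± 0.30, adjusted p = 0.00359). Both kept their calls without any 1 library. Gja1, the main connexin of astrocytes, was at 11.16, 10.86 and 11.21, against 12.27, 11.20, 12.15 and 12.53, and did not pass the test (adjusted p = 0.0718). Gjd2, the connexin of electrical synapses between neurons, rose, at 2.39, 3.52 and 3.18, against 1.65, 1.64, 1.96 and 1.66 (1.30 ± 0.31, adjusted p = 0.0432). Gjd2 was named after its values were seen, and it was not called in every fit that left out 1 library.

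Of 44 matrix genes 3 fell, none rose, and 39 were below 0 (median −0.70). Fn1, the fibronectin gene, was at 12.44, 11.80 and 12.57 with Neurog2+Hmgb2, against 14.39, 13.07, 13.61 and 13.28 with Hmgb2. Col8a1, a short-chain collagen, was at 9.22, 9.46 and 10.06, against 12.52, 10.80, 10.65 and 11.20, and Col12a1, a fibril-associated collagen, at 8.46, 8.98 and 9.62, against 10.97, 9.87, 10.47 and 10.37. Hmgb2 replicate 1 was the highest library in all 3. Of 35 stress fibre and focal adhesion genes 2 fell, none rose, and 34 were below 0 (median −0.60). Synpo, which bundles actin, was at 8.12, 8.46 and 8.80, against 10.36, 9.48, 10.21 and 9.60, and Cnn1, a calponin of smooth muscle, at 8.47, 8.69 and 8.85, against 11.32, 10.01, 10.00 and 10.38. These calls depend on libraries. Without Hmgb2 replicate 1 no matrix or stress fibre gene was called, nor without Neurog2+Hmgb2 replicate 2. The matrix genes called numbered 1 without Neurog2+Hmgb2 replicate 1 or 3 or Hmgb2 replicate 3 and 0 without Hmgb2 replicate 4. The stress fibre genes numbered 1 without each of these 4 libraries. Meningeal fibroblast markers had a mean of 7.92, 7.38 and 8.49, against 8.73, 7.81, 8.49 and 8.72, with 13 of 16 below 0. Pericyte and smooth muscle markers had 6.19, 6.10 and 6.66, against 7.30, 6.58, 6.38 and 6.95, with 8 of 9 below 0. The part of these cells in the falls was not tested.

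The other large falls were of genes in no list. Sned1, a matrix-associated protein, was at 5.55, 5.19 and 6.22 in Neurog2+Hmgb2 cells, against 9.49, 7.15, 7.90 and 8.15 in Hmgb2 cells (−2.52 ± 0.60, adjusted p = 0.0413, limma). Lrrc32, which holds latent TGF-beta at the cell surface, was at 5.91, 6.52 and 7.24, against 9.62, 7.67, 8.89 and 8.90. Rtl3, a gene derived from a retrotransposon, was at 2.49, 2.48 and 2.91, against 5.72, 3.49, 5.04 and 4.54. In these 3 genes Hmgb2 replicate 1 was the highest and replicate 2 the lowest of its group, and without Hmgb2 replicate 1 none kept its call (adjusted p = 0.195, 0.149 and 0.102). Rtl3 also lost it without Neurog2+Hmgb2 replicate 2 or 3 or Hmgb2 replicate 3, and Sned1 and Lrrc32 without any 1 library other than Hmgb2 replicate 2 (0.0546 to 0.252). The Wnt receptor gene Fzd7, the tendon factor Scx, the membrane protein gene Emp2 and Ptchd4 fell by 1.35, 1.12, 1.15 and 1.31 on the log2 scale. Each of these 4 lost its call without Hmgb2 replicate 1 and without at least 3 other libraries.

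Signalling and state lists gave almost no call. Of all tested genes 0.693% were called higher and 0.216% lower with any fold, so lists of this size hold few calls or none at these shares. Of 34 genes of TGF-beta and BMP signalling 1 rose, Id2, an inhibitor of helix-loop-helix factors, at 11.87, 11.92 and 11.73 with Neurog2+Hmgb2, against 10.29, 11.15, 10.69 and 10.93 with Hmgb2 (1.08 ± 0.21, adjusted p = 0.0128, limma). It lost its call without Neurog2+Hmgb2 replicate 2 or 3 or Hmgb2 replicate 1 (0.0998, 0.0546 and 0.0682). None of 22 YAP and TAZ targets (median −0.48) and none of 39 growth factor and ERK genes (median −0.13) passed the test. Ccn2, a target of YAP and of TGF-beta, was at 11.15, 10.85 and 10.64, against 12.95, 12.87, 11.63 and 12.07, apart but not called (adjusted p = 0.105). All 45 cell cycle genes were above 0, with a median of 0.32, a range of 0.03 to 0.65 and none called or apart. Their mean was 9.57, 8.71 and 8.46, against 9.10, 9.10, 7.77 and 8.41. Wnt genes (19, median −0.65), reactive astrocyte genes (39, −0.36), interferon genes (31, −0.23), stress genes (35, −0.10), cholesterol genes (24, −0.23), oxidative phosphorylation genes (34, 0.11) and stem cell genes (24, −0.11) gave no call. Nor did genes of cell cycle exit (20, 0.07), of the oligodendrocyte lineage (18, 0.51), of endothelial cells (9, −0.24) or of muscle fates (23, −0.01).

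**Figure D4:**
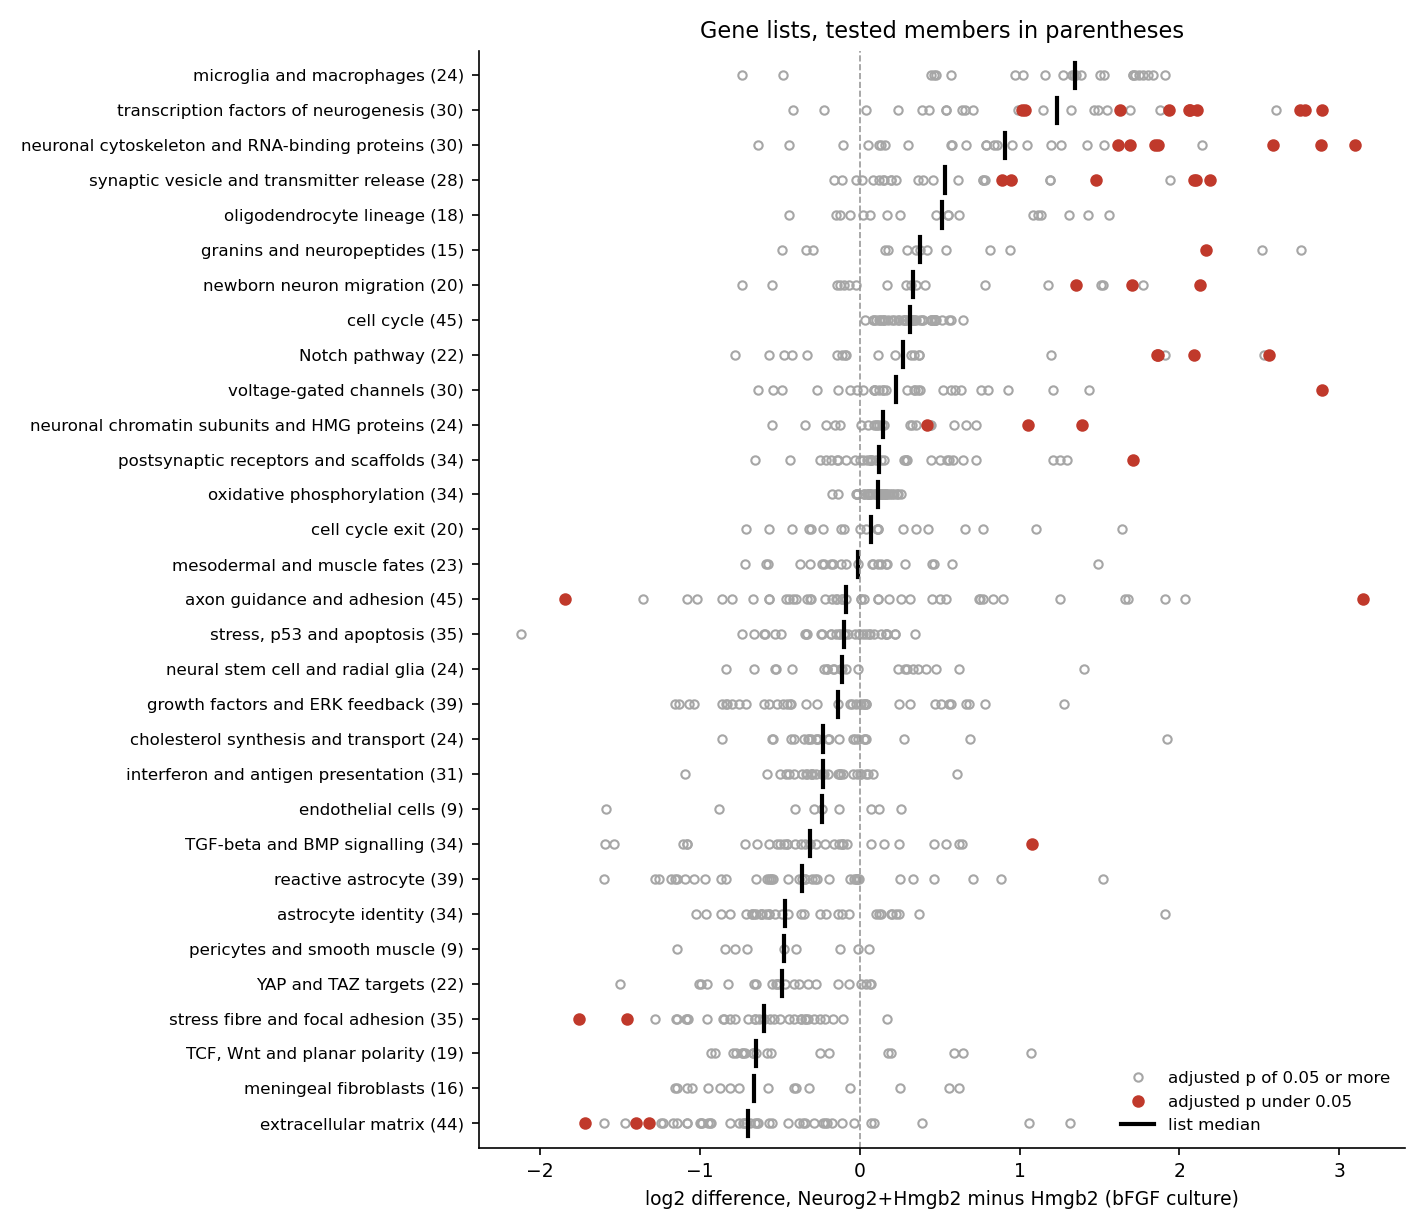
The log2 difference of Neurog2+Hmgb2 minus Hmgb2 is plotted for every tested member of 31 lists (points), with called members filled and the median of each list as a bar. Neurogenic factors had a median of 1.23 with 10 called, and the microglia list had the highest median, 1.35, with none called.

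The called genes lay on the same side of 0 where Neurog2 was added without Hmgb2 and where EGF was present. Neither comparison shares a library with the one above. All 3 come from the same fit, however, and use the same estimate of the spread of each gene. Genes with a small estimate are favoured in the calls of each, so the shared calls are not independent. All 84 higher genes were above 0 for Neurog2 against control in bFGF culture, where 51.4% of all tested genes were, and all were above 0 for Neurog2+Hmgb2 against Hmgb2 in EGF+bFGF culture, where 52.2% were. All 19 lower genes were below 0 in both, where 48.6% and 47.8% of all tested genes were. With any fold, 34 of the 84 were called higher for Neurog2 against control, which called 0.337% of tested genes, and 54 in EGF+bFGF culture, which called 0.751%. Of the lower genes 1 and 5 were called in these comparisons, which called 0.0127% and 0.165%. Of the 109 genes higher with any fold, 41 were also higher for Neurog2 against control, which is 37.6% of these 109 and 77.4% of the 53 genes higher for Neurog2 against control. With the EGF+bFGF list they shared 66, which is 60.6% and 55.9% of the lists, and 32 genes were in all 3. The median of the 84 was 1.84 here, 1.40 for Neurog2 against control and 1.61 in EGF+bFGF culture. The first of these is raised by the choice of the genes on it.

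No gene passed the test of a difference between responses. The response to Neurog2 with Hmgb2 minus that without Hmgb2 gave 0 called genes of 15719 (limma interaction term, adjusted p under 0.05), with 67 at an unadjusted p under 0.05. The response in bFGF minus that in EGF+bFGF culture gave 0, with 151. The level alone would give 786, so both tests passed fewer genes than it, and the 0 does not show that responses were equal. The intervals are wide. For Dcx, the response with Hmgb2 minus that without was 0.62 (95% interval −1.10 to 2.34), for Neurod1 0.65 (−0.64 to 1.94) and for Lzts1 −0.58 (−1.47 to 0.32). That of St18 was 1.16 (0.25 to 2.07), and that of Neurog2 was −1.52 (−2.68 to −0.37), where the Hmgb2-labelled libraries hold more Neurog2 than the controls. Both had an adjusted p of 1. For Gjb2 the response in bFGF minus that in EGF+bFGF culture was −2.26 (−4.08 to −0.43), with an adjusted p of 1.

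**Figure D5:**
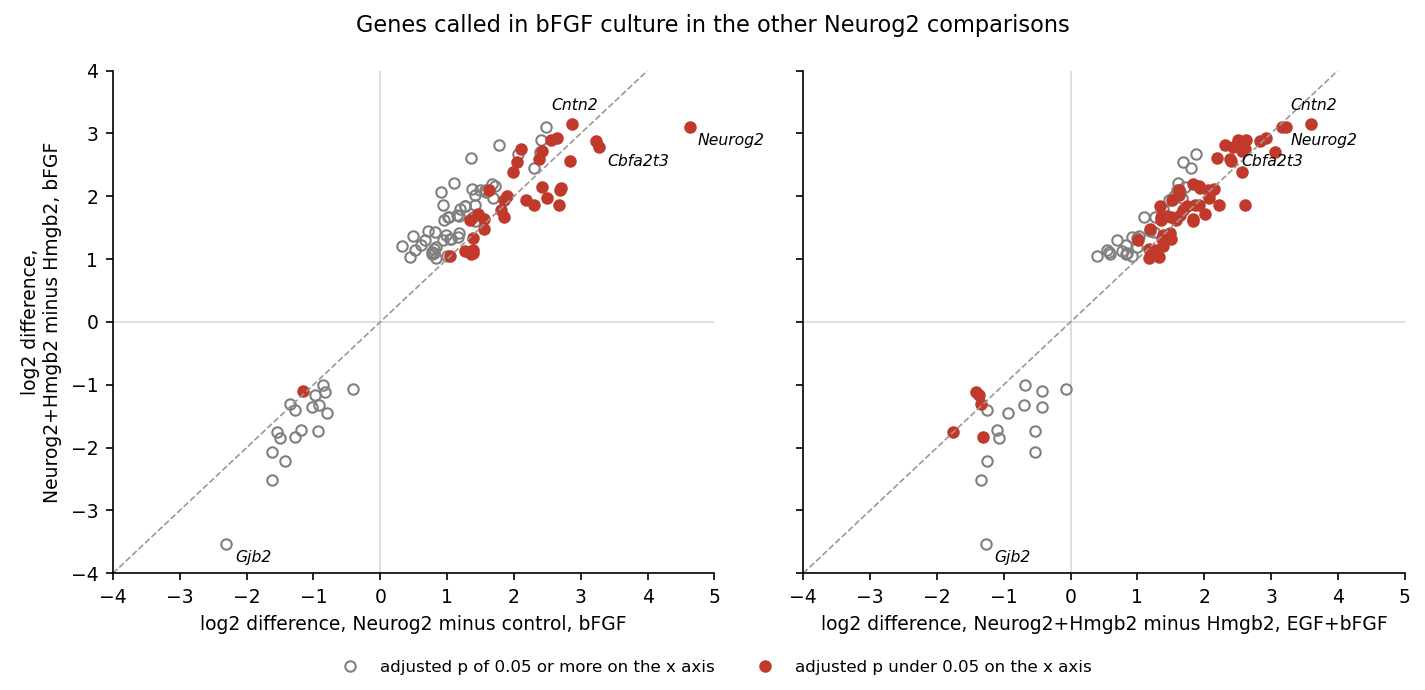
The log2 difference of the called genes in bFGF culture (y axis) is plotted against that for Neurog2 minus control in bFGF culture (left) and for Neurog2+Hmgb2 minus Hmgb2 in EGF+bFGF culture (right), with a dashed line of equal values. All 84 higher genes lie to the right of 0 and all 19 lower genes to the left in both panels, and filled points were called on the x axis.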

How the data were processed

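RNA was measured in 29 libraries from sorted cells, made with SMART-Seq v4 chemistry without strand information. The authors aligned paired-end reads to the mouse genome mm10 with STAR, counted them per gene with HTSeq-count and a GENCODE annotation, and deposited regularized log2 (rlog) values from DESeq2. The submitters' processing notes give HTSeq 0.9.1 and DESeq2 1.36.0. The depth of single libraries is unknown, and no interval from counts is given. The rlog transform draws values of genes with few reads towards their mean, so their differences are understated.

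Group means over all 29 libraries were fitted with limma 3.58.1 in R 4.3.3 (empirical Bayes with a variance trend, 21 residual and 2.81 prior degrees of freedom), for 15719 genes with a mean rlog of at least 1, and 9520 genes were left out. All groups shared 1 estimate of the spread. P-values were two-sided and adjusted by Benjamini and Hochberg over all tested genes. Calls over all genes needed a fold above 2 beside an adjusted p under 0.05. For list members the adjusted p sufficed. Interaction terms compared responses with and without Hmgb2 and in both cultures. No column of unknown origin was used.

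The members and the 31 gene lists were chosen with earlier results of these data known. Named were the virus genes, the 15 largest rises and 15 largest falls without overlap of the groups, up to 6 called members of each list and direction, examples that were not called, and genes named by the study. Some genes that this rule selects are not reported here. Groups follow the labels. The fit was tested on simulated data with known changes. Alternatives changed the filter, scaling, weights, variance trend, fold, libraries and replicate block, and 3 were added after the data were seen. Gene positions are those of GRCm38, and promoters are RefSeq sequences on GRCm38.p6. Plots were drawn with matplotlib 3.10.9.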

Additional observations from a re-analysis of the deposited data

Results flagged for a closer look

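Neurog2 in the Hmgb2-labelled libraries of the bFGF culture lay 2.17 above the control libraries on the log2 scale, although these cells are labelled as having the Hmgb2 virus alone. Where its reads came from was not tested.

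In the group of 4 Hmgb2 libraries a single library stood far from the rest in 4 of 91 sets of values tested (60 named genes and 31 list means), by Dixon's test at its 95% critical value, where chance alone marks about 1 in 20. Dcx was at 3.94 in Hmgb2 replicate 1, with 5.16 to 5.40 in the others. Neurod2 was at 2.87 in replicate 2, with 2.36 to 2.38 in the others. St18 was at 2.33 in replicate 4, with 2.65 to 2.69 in the others. The mean of the reactive astrocyte list was 10.94 in replicate 3, with 9.63 to 9.65 in the others. Groups of 3 libraries were not tested in this way.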

How the results depend on the processing

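The number of called genes depended strongly on the libraries and on the fit, while no named gene changed direction under any of 18 alternatives planned. Against 84 higher and 19 lower genes as reported, leaving out 1 library gave 27 to 165 higher and 2 to 38 lower genes. Without a filter 58 and 5 were called, with a mean rlog of at least 4 there were 54 and 13, and with only the groups compared 6 and 0. Array weights gave 411 and 116. Without a fold threshold 109 and 34 were called, and at a fold above 1.5 there were 102 and 32. Centring libraries on their medians gave 87 and 19 and quantile normalization 88 and 17, with a median over all genes of -0.01 and 0.00 and a share of higher calls of 82.1% and 83.8%, against 81.6% as reported. Whether replicate numbers pair the libraries is not known, and the fit reported did not pair them. Deviations of same-numbered libraries correlated at 0.47, -0.28 and 0.39. The replicate block gave 109 and 28 genes, or 130 and 40 within culture, with 83 and 18 of those reported kept by the first. With the replicate block Prox1, Lrp8 and Dscaml1 also passed (adjusted p = 0.0305, 0.0466 and 0.0486, and 0.0207, 0.0228 and 0.0448 within culture). In alternatives chosen after seeing the data, the mean of microglia markers as a covariate gave 76 and 9, leaving out both ends of the main axis 133 and 8, and leaving out Hmgb2 replicates 2 and 3, which had the highest Neurog2 of their group, 62 and 48, with 1 gene past the test between cultures. In the other settings both interaction tests called 0 genes. The cause of these changes was not tested. Some of these settings also had fewer libraries or genes in the fit. Of 55 named genes called, 15 kept an adjusted p under 0.05 whichever library was left out and 40 lost it at least once. Of 294 pairs of a list count and a setting, 114 moved by over 1.5 times. Depth limits what can be said of genes with few reads, whose rlog differences are understated.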
